A study of Mus musculus with 12 samples.

Results

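Genes of cell cycle arrest and the p53 response were followed in mouse kidney. They were chosen by symbol, as the 10 rows of a table of 22053 genes that carry the names Cdkn1a, Cdkn1b, Cdkn2a, Cdkn2b, Cdkn2c, Trp53, Mdm2, Ccng1, Gdf15 and Gadd45a. RNA sequencing was performed on whole kidney tissue of 12 C57BL/6 mice, 4 in each of 3 groups, with 1 library per mouse. CKD mice ate a 0.2% adenine diet from 8 to 16 weeks of age, and control mice ate the same diet without adenine. CKD+Fe mice ate the adenine diet and received iron dextran i.p. at 0.5 g/kg every week, while the study's methods state that untreated mice received PBS. Dietary adenine is known to form crystals in the tubules, and both agents act on the whole animal and not on 1 cell type. Nothing in the labels ties mice to a cage, litter or batch, and replicate numbers here only name the mice.

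The protein p53, encoded by Trp53, is a transcription factor that is held low by the ubiquitin ligase Mdm2 and is stabilised by DNA damage and other stress. It is regulated mainly at the protein level, and Mdm2 is itself one of its targets, which closes a feedback loop. Other targets include Cdkn1a (p21), which stops cyclin-dependent kinases, Ccng1 (cyclin G1), Gadd45a, a growth arrest and DNA damage protein, and Gdf15, a secreted stress hormone. The INK4 proteins of Cdkn2a (p16), Cdkn2b (p15) and Cdkn2c (p18) block Cdk4 and Cdk6, and Cdkn1b (p27) is a relative of p21. In injured kidney tubules p21 and p16 are known as markers of arrested and senescent cells. Cdkn2a also encodes p19ARF, which inhibits Mdm2, from a separate first exon.

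Start site windows of 4 genes are shown first, chosen for the gene with the highest log2 fold change, for 2 further p53 targets whose values contrast with it, and for the locus with 2 products. Each runs from 250 bases before to 50 bases after an annotated transcript start in RefSeq (GRCm38.p6), written 5′ to 3′ on the gene's strand. Capitals mark matches on either strand to 5 motifs, namely the p53 half-site consensus, the GC box GGGCGG, the TATA box TATAAA, the ATF4 element TGATGNAA and the E2F site TTTCCCGC, or to a full p53 site. A full p53 site was taken as a pair of adjacent half-sites, 20 letters with at most 1 mismatch, and by this definition it overlaps the half-site search. The windows are Cdkn1a start 1 at chr17:29090729-29091028 (+), Cdkn1a start 2 at chr17:29093519-29093818 (+), Ccng1 at chr11:40755237-40755536 (-), Mdm2 at chr10:117710709-117711008 (-), Cdkn2a start 1 at chr4:89294570-89294869 (-) and Cdkn2a start 2 at chr4:89282143-89282442 (-).
Cdkn1a start 1: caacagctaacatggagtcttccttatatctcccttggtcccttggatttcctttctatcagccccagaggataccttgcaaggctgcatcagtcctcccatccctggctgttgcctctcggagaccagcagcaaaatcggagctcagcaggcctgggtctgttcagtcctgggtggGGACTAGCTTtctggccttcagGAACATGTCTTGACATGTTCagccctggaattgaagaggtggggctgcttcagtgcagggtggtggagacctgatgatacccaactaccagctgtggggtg
Cdkn1a start 2: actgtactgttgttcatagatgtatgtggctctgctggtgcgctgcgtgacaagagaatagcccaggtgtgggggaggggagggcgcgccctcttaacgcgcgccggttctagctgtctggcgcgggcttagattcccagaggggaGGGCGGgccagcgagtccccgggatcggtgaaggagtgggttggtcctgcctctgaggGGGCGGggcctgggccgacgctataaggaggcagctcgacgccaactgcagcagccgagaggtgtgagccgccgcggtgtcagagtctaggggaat
Ccng1: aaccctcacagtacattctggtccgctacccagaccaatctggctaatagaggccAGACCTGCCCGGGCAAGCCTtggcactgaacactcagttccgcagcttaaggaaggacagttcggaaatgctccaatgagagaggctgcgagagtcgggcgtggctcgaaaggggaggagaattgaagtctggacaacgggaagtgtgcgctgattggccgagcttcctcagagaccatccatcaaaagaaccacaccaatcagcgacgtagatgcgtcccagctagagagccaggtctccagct
Mdm2: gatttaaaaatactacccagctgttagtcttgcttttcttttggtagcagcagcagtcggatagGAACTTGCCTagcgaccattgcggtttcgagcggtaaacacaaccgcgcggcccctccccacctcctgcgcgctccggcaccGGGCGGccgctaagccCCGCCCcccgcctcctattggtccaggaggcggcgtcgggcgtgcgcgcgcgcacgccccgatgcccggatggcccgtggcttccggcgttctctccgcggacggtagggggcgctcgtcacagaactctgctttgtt
Cdkn2a start 1: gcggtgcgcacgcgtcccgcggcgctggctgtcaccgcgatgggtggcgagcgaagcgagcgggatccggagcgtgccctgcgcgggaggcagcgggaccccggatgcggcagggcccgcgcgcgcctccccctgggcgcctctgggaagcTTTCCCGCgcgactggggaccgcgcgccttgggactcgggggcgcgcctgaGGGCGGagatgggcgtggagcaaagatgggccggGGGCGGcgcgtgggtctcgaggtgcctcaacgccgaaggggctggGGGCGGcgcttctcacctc
Cdkn2a start 2: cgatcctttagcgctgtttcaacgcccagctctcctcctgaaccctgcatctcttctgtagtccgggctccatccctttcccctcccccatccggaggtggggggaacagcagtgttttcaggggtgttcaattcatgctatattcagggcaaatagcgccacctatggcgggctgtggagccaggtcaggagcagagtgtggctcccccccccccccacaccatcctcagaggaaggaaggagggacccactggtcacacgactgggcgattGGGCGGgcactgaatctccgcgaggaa

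The window at start 1 of Cdkn1a holds the run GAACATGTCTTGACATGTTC at 29090928 to 29090947, a full p53 site with 1 mismatch, and a separate half-site lies just upstream of it. Start 2 of Cdkn1a lies 2790 bp downstream and its window holds 2 GC boxes and no p53 half-site. The Ccng1 window holds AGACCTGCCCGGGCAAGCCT at 40755462 to 40755481, also with 1 mismatch. Of 32851 RefSeq windows of this length, 29 (0.0883%) held a full site and 8.36% held a half-site. Of the 14 windows of the 10 genes, 2 held a full site and 5 held a half-site, the latter at Cdkn1a, Ccng1, Mdm2, Trp53 and Gadd45a. Several of these genes were chosen as known p53 targets and some have 2 windows. The counts are therefore a description and not a test against all windows. The GC box was in 8 of the 14 windows and in 35.7% of all windows. The E2F site was in 1 of 14, at start 1 of Cdkn2a, and in 1.07% of all windows. The TATA box was in 1 of 14 (Trp53) and 13.6%, and the ATF4 element in 0 of 14 and 3.97%. The match at Trp53 was on the opposite strand at offset -248 from the start, at the far upstream end of the window. The starts of Cdkn2a lie 12427 bp apart, and the FPKM of the gene does not separate the p16 and p19ARF transcripts. These matches describe letters in the windows and not measured binding, and the expression values are per gene and not per start. Sequence outside the windows, such as the introns of Mdm2, was not read. A window without a full site therefore does not show that the gene lacks one.

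Expression was deposited as FPKM (fragments scaled to transcript length and to the mapped reads of the mouse), a level per length that allows genes to be compared. In control kidney the mean levels ran in the order Ccng1 (65.0 FPKM), Gadd45a (27.0), Trp53 (21.4), Cdkn1b (18.2), Mdm2 (13.8), Cdkn2c (7.92), Cdkn1a (5.34), Gdf15 (4.27), Cdkn2b (2.19) and Cdkn2a (listed at 0). Every control mouse had more Ccng1 than any other of the 10 transcripts. The ranges of Gadd45a, Trp53 and Cdkn1b overlapped one another, as did those of Cdkn2c, Cdkn1a and Gdf15. In CKD kidney Cdkn1a took the third place at 42.9 FPKM, behind Ccng1 (55.2) and Gadd45a (47.4), and the ranges of these 3 overlapped. Among the 13148 genes tested the level of Cdkn1a was at percentile 39.4 in control and 82.7 in CKD mice, whereas Ccng1 was at 88.9 and 87.0.

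**Figure D1:**
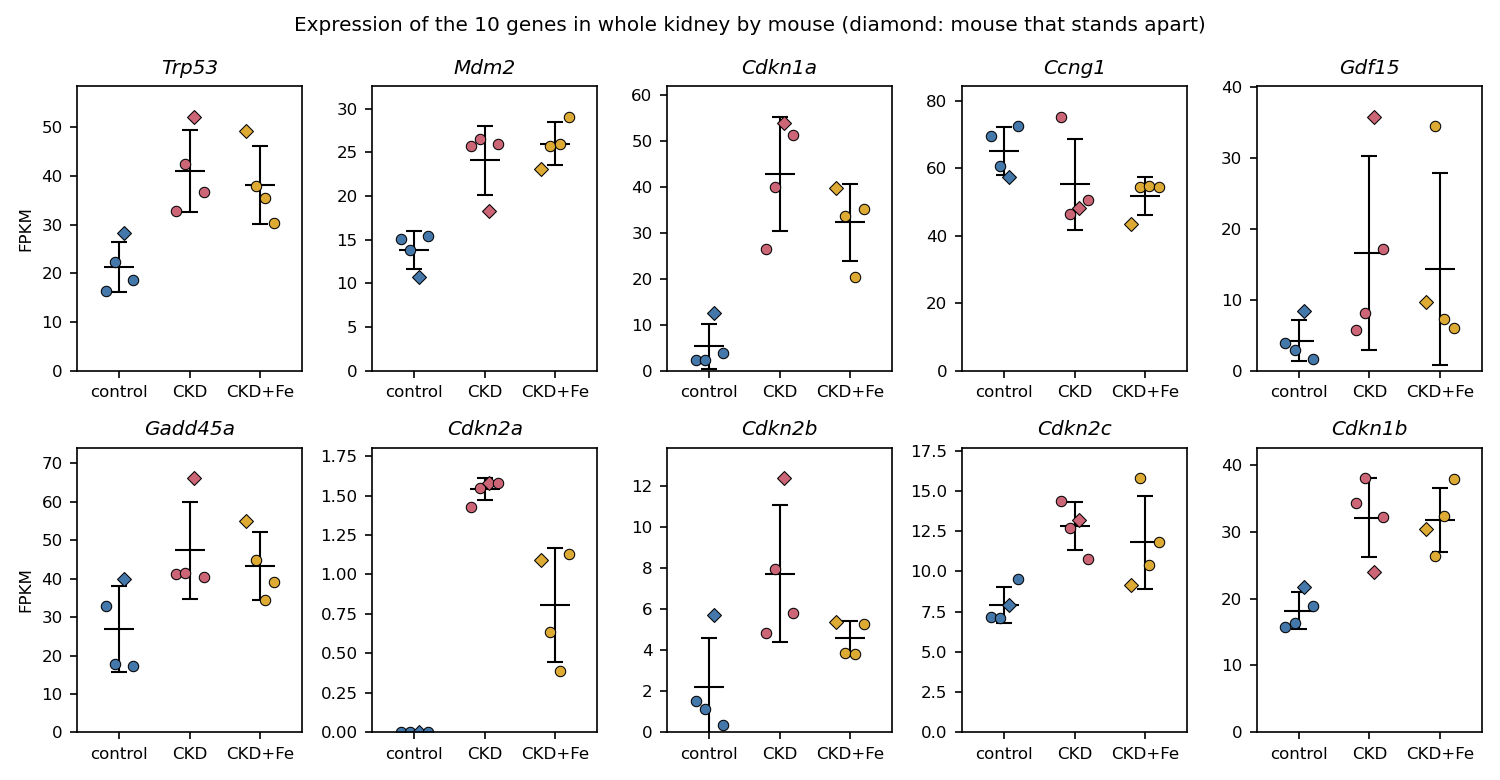
FPKM of each gene (y axis, from 0) in the 4 control, 4 CKD and 4 CKD+Fe mice (x axis), 1 point per mouse, with the group mean and SD as a bar cut off at 0 and a diamond for the mouse of each group that stands apart. Cdkn1a lies between 2.35 and 12.6 FPKM in control and between 26.6 and 53.8 in CKD mice, and Cdkn2a is at 0 in every control mouse.

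The libraries differ in ways that bear on every value below. First, most genes were higher in CKD in these FPKM, with a median log2 fold change over all genes of 0.502 in CKD against control, -0.001 in CKD+Fe against CKD and 0.5 in CKD+Fe against control, and the changes of the 10 genes in CKD against control are also given after the mice were rescaled by the median of ratios (called rescaling below), when the medians were 0.012, 0.008 and 0.017. Second, 1 mouse of each group stood apart, with 596 genes (control mouse 3), 806 genes (CKD mouse 3) and 442 genes (CKD+Fe mouse 1) that differed at least 2-fold from the other 3 mice of the group, against 42 to 225 in the other 9 mice. The summed FPKM of 8 proximal tubule markers was 4770 to 6570 in control, 540 to 1040 in CKD and 646 to 1740 in CKD+Fe mice, with 7 of 8 markers called lower in CKD. Over 7 injured tubule markers it was 601 to 859, 12000 to 21500 and 8740 to 15700, and over 8 macrophage markers 120 to 248, 1750 to 3660 and 1630 to 3730, with all 7 and all 8 called higher in CKD. Over 7 fibroblast markers (all called higher) the sum was 91.8 to 126, 479 to 874 and 402 to 564, and over 8 T and B cell markers 3.68 to 7.51, 4.66 to 22.9 and 14.9 to 27.8. No marker in these lists was at 0 in all mice of a group. In whole tissue, more cells of a type and more RNA per cell cannot be told apart, and the part of these shifts in the changes of the 10 genes was not tested.

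CKD was compared with control to ask how the arrest and p53 genes stand in the diseased kidney. By limma on log2(FPKM + 1), at an adjusted p under 0.05 over all 13148 genes tested (all 10 genes passed the filter), 9 of the 10 were higher in CKD and 0 lower, where 54.6% of all genes were called higher and 13.3% lower. The 9 were all but Ccng1. Of the 10, 7 had every CKD mouse above every control mouse, as did 44.6% of all genes tested, and 0 had every CKD mouse below, as did 10.5%. The median log2 fold change of the 10 was 0.88 and that of all genes 0.502. After rescaling 3 stayed higher, Cdkn1a, Cdkn2a and Cdkn2b, and 1, Ccng1, was called lower, where 28.8% of all genes were higher and 29.3% lower, so that 3 of 10 is close to the share of all genes. With quantile normalization 5 were higher, Cdkn1a, Cdkn2a, Cdkn1b, Trp53 and Gadd45a, and 0 lower, where 23.3% of all genes were higher and 25.6% lower. Cdkn1a was called higher as deposited and under both of these scalings. So was Cdkn2a, which passed the filter on low values only through the adenine-fed mice.

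**Figure D2:**
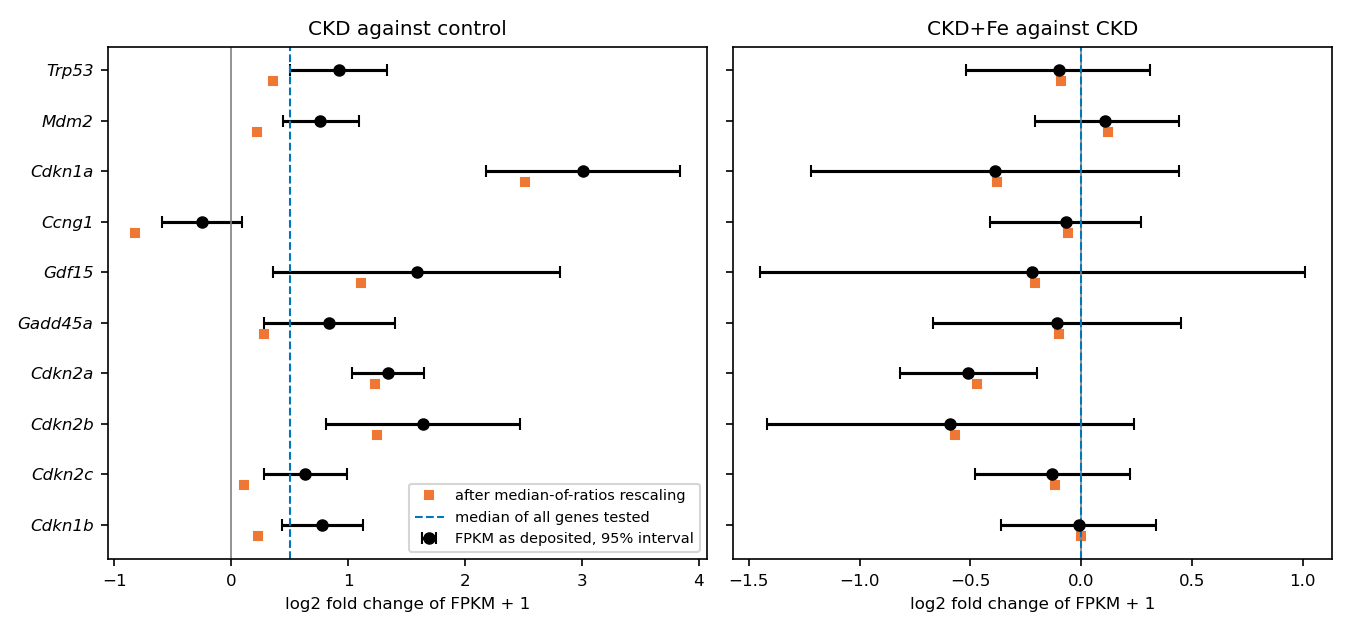
Change of FPKM + 1 on the log2 scale (x axis) for each gene (y axis) in CKD against control (left, all genes at a median of 0.502) and CKD+Fe against CKD (right, median -0.001, dashed lines). Circles are the values as deposited with 95% intervals and squares the values after rescaling, and Cdkn1a is the gene farthest to the right in the left panel, at 3.01.

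Cdkn1a (ENSMUSG00000023067, chromosome 17 from 29090979 to 29100722, GRCm38), which encodes p21, had the highest log2 fold change of the 10. Its level was 2.35, 2.4, 12.6 and 3.98 FPKM in control mice 1 to 4, and 26.6, 39.9, 53.8 and 51.3 in CKD mice 1 to 4. The lowest CKD mouse was above the highest control mouse, and control mouse 3 was the one control above 4 FPKM. The mean rose from 5.34 ± 4.92 to 42.9 ± 12.4 FPKM (SD, n = 4), or 8.03-fold, and 13.5-fold without the 3 mice that stand apart. The log2 fold change was 3.01 (SE 0.39, adjusted p = 1.93e-05, limma) with an exact two-sided permutation p of 0.0286, the smallest that 4 mice against 4 allow. It ranked 152 by log2 fold change over the whole table tested. After rescaling it was 2.51 (adjusted p = 0.00012) and with quantile normalization 2.48. The call held in all 21 alternative fits, with a log2 fold change between 2.48 and 3.46.

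Cdkn1b (ENSMUSG00000003031, chromosome 6 from 134920401 to 134925513), or p27, which restrains Cdk2 in resting cells, had a lower log2 fold change. Control mice 1 to 4 had 15.7, 16.4, 21.7 and 18.9 FPKM and CKD mice 1 to 4 had 34.2, 38.0, 24.0 and 32.2. The groups did not overlap, and CKD mouse 3 was the lowest of its group. The log2 fold change was 0.78 (SE 0.16, adjusted p = 0.000847, limma). After rescaling it was 0.23 and past no threshold (adjusted p = 0.2, limma), and with quantile normalization 0.46 (adjusted p = 0.0341).

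Among the INK4 genes, Cdkn2a (ENSMUSG00000044303, chromosome 4 from 89274471 to 89294653) was listed at 0 in all 4 control mice, with none of these values marked as a failed estimate. CKD mice 1 to 4 had 1.43, 1.55, 1.58 and 1.58 FPKM, with the lowest coefficient of variation (4.61%) among the groups of the 10 genes. No fold can be given against a group at 0, and the gene passed the filter on low values only through the adenine-fed mice. Its values are therefore given as a description. Its calls against control, in CKD above and in CKD+Fe below, are counted but support nothing further. Even in CKD it stayed at percentile 5.4 of the genes tested. The value sums both starts shown above, of which start 1 is the upstream one.

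The neighbouring Cdkn2b (ENSMUSG00000073802, chromosome 4 from 89306289 to 89311032), p15, a known target of TGF-β signalling, had 1.52, 1.13, 5.72 and 0.381 FPKM in control mice 1 to 4. In CKD mice 1 to 4 it had 4.84, 7.96, 12.4 and 5.8 FPKM. The groups overlapped through control mouse 3 alone, which lay above CKD mouse 1. The log2 fold change was 1.64 (SE 0.39, adjusted p = 0.00204, limma; exact permutation p = 0.0571). The fold of means was 3.54, and 6.12 without the 3 mice that stand apart. After rescaling the log2 fold change was 1.25 (adjusted p = 0.0176) and with quantile normalization 0.84 (adjusted p = 0.0943, limma).

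Cdkn2c (ENSMUSG00000028551, chromosome 4 from 109660876 to 109667189), p18, had 7.16, 7.09, 7.91 and 9.51 FPKM in control and 14.4, 12.7, 13.2 and 10.8 in CKD mice 1 to 4, without overlap. Its log2 fold change of 0.63 (SE 0.16, adjusted p = 0.00397, limma) lay close to the median of all genes. After rescaling it was 0.11 (adjusted p = 0.618). The 3 INK4 genes thus differed in level, and their values after rescaling ran from 0.11 to 1.25.

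Trp53 (ENSMUSG00000059552, chromosome 11 from 69580359 to 69591873) had 16.5, 22.3, 28.2 and 18.7 FPKM in control mice 1 to 4. CKD mice 1 to 4 had 32.8, 42.5, 52.2 and 36.8 FPKM, all above the controls, and mouse 3 was the highest in both groups. The transcript's log2 fold change was 0.92 (SE 0.19, adjusted p = 0.000969, limma). It was 0.36 after rescaling (adjusted p = 0.125) and 0.65 with quantile normalization (adjusted p = 0.00693). Mouse Trp53 has a processed pseudogene, and reads shared with it could not be separated here. The abundance of p53 protein was not measured in these files.

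Mdm2 (ENSMUSG00000020184, chromosome 10 from 117688888 to 117710758) had 15.1, 13.8, 10.7 and 15.4 FPKM in control and 25.7, 26.5, 18.3 and 26.0 in CKD mice 1 to 4. The groups did not overlap, and here mouse 3 was the lowest in both. Mdm2 had a log2 fold change of 0.76 (SE 0.15, adjusted p = 0.000598, limma), with 0.22 after rescaling (adjusted p = 0.233). In the same mice in which Trp53 was highest, Mdm2 was thus lowest, and the ratio of Mdm2 to Trp53 was 0.379 in control mouse 3 and 0.35 in CKD mouse 3, against 0.621 to 0.918 in the other control and 0.625 to 0.782 in the other CKD mice.

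Ccng1 (ENSMUSG00000020326, chromosome 11 from 40748552 to 40755311), which recruits a phosphatase to Mdm2, was the one gene of the 10 that was not called higher. It had 69.4, 60.8, 57.4 and 72.6 FPKM in control and 75.3, 46.4, 48.3 and 50.7 in CKD mice 1 to 4. CKD mice 2, 3 and 4 lay below all controls and CKD mouse 1 above them. Its log2 fold change was -0.25 (SE 0.16, adjusted p = 0.167, limma; exact permutation p = 0.2286). It was -0.82 after rescaling (adjusted p = 0.000983), -0.41 without CKD mouse 1 (adjusted p = 0.0174, limma), and -0.25 with quantile normalization (adjusted p = 0.286).

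Ratios within a mouse do not depend on the scaling between mice, and 2 are given as a description, chosen after the values were seen. The ratio of Cdkn1a to Mdm2 was 0.156, 0.174, 1.18 and 0.259 in control mice 1 to 4. It was 1.04, 1.5, 2.94 and 1.97 in CKD and 1.72, 1.31, 0.784 and 1.21 in CKD+Fe mice. Control mouse 3 alone reached the range of the adenine-fed mice. The ratio of Ccng1 to Mdm2 was 4.4 to 5.37 in control, 1.75 to 2.94 in CKD and 1.87 to 2.12 in CKD+Fe mice, with no overlap between controls and either group. The genes were picked for their contrast, so these ratios support no statement about p53 targets at large.

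**Figure D3:**
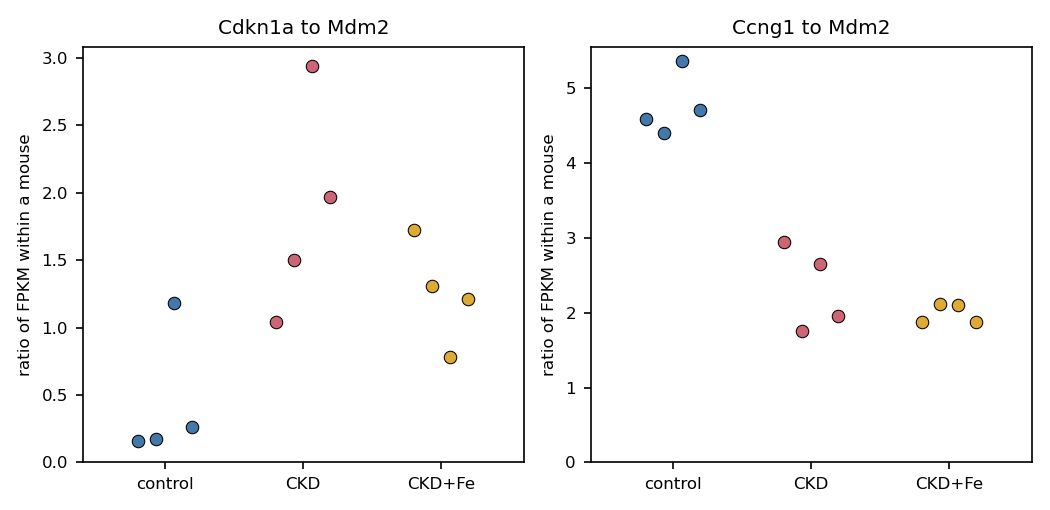
Ratio of FPKM within each mouse (y axis, from 0) of Cdkn1a to Mdm2 (left) and of Ccng1 to Mdm2 (right), 1 point per mouse in the 3 groups (x axis). Control mice have Ccng1 to Mdm2 ratios of 4.4 to 5.37, above every CKD and CKD+Fe mouse.

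Gdf15 (ENSMUSG00000038508, chromosome 8 from 70629393 to 70632456) was the most variable of the 10 in CKD. Control mice 1 to 4 had 3.95, 2.98, 8.4 and 1.75 FPKM and CKD mice 1 to 4 had 5.72, 8.17, 35.9 and 17.2. CKD mice 1 and 2 lay below control mouse 3. The log2 fold change was 1.59 (SE 0.57, adjusted p = 0.0243, limma; exact permutation p = 0.0857). Its adjusted p was above 0.05 when control mouse 2, control mouse 4, CKD mouse 3 or CKD mouse 4 was left out (up to 0.0812), after rescaling (log2 fold change 1.11, adjusted p = 0.123) and with quantile normalization (0.85, adjusted p = 0.27). The transcript of its receptor, Gfral, which is known from the hindbrain, was listed at 0 in all 12 kidneys.

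Gadd45a (ENSMUSG00000036390, chromosome 6 from 67035096 to 67037457) had 33.0, 17.9, 39.8 and 17.4 FPKM in control and 41.1, 41.6, 66.2 and 40.4 in CKD mice 1 to 4. The lowest CKD mouse was just above control mouse 3, and CKD mouse 3 stood above the other 3 of its group. Gadd45a had a log2 fold change of 0.84 (SE 0.26, adjusted p = 0.011, limma), and 0.28 after rescaling (adjusted p = 0.373). Its relative Gadd45b, by comparison, rose by 1.72 on the log2 scale (adjusted p = 0.000863), from 3.99 ± 3.44 to 13.8 ± 4.41 FPKM (SD, n = 4), and by 1.25 after rescaling.

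The mouse that stood apart in each group, picked for differing most from the rest, shared a pattern in some of these genes. Cdkn1a, Cdkn2b, Trp53 and Gadd45a were highest in that mouse in all 3 groups, and Mdm2 was lowest in it in all 3 groups. The other genes held no fixed place. Gdf15 was highest in it in control and CKD and between in CKD+Fe. Cdkn1b was highest in control, lowest in CKD and between in CKD+Fe. How many of all genes take such places in these mice was not counted. For Cdkn1a the mouse had 4.33 times the mean of the other 3 in control, 1.37 times in CKD and 1.34 times in CKD+Fe. For Mdm2 the ratios were 0.723, 0.701 and 0.86. Of the marker sums, those of endothelium and red cells were highest in that mouse in all 3 groups, at 275, 202 and 233 FPKM for 6 endothelium markers and 102, 114 and 43.2 FPKM for 5 red cell markers in control mouse 3, CKD mouse 3 and CKD+Fe mouse 1. In the other mice the endothelium sum was 142 to 149 in control, 118 to 177 in CKD and 170 to 198 in CKD+Fe, and the red cell sum 12.5 to 52.4, 5.72 to 107 and 4.94 to 14.6. The macrophage sum was highest in that mouse in control (248) and CKD+Fe (3730) and not in CKD, and the fibroblast sum in CKD (874) and CKD+Fe (564) and not in control. The T and B cell sum was highest in it in CKD (22.9) and CKD+Fe (27.8) and not in control. The proximal tubule sum was lowest in it in control (4770) and CKD+Fe (646) and not in CKD. The loop, duct and podocyte sum and the urothelium sum were highest in it in control and lowest in it in CKD and CKD+Fe. The injured tubule sum was highest in it in control (859) alone. The part of these sums in the pattern was not tested. Without these 3 mice, 9 of the 10 genes were again called higher in CKD and 0 lower.

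**Figure D4:**
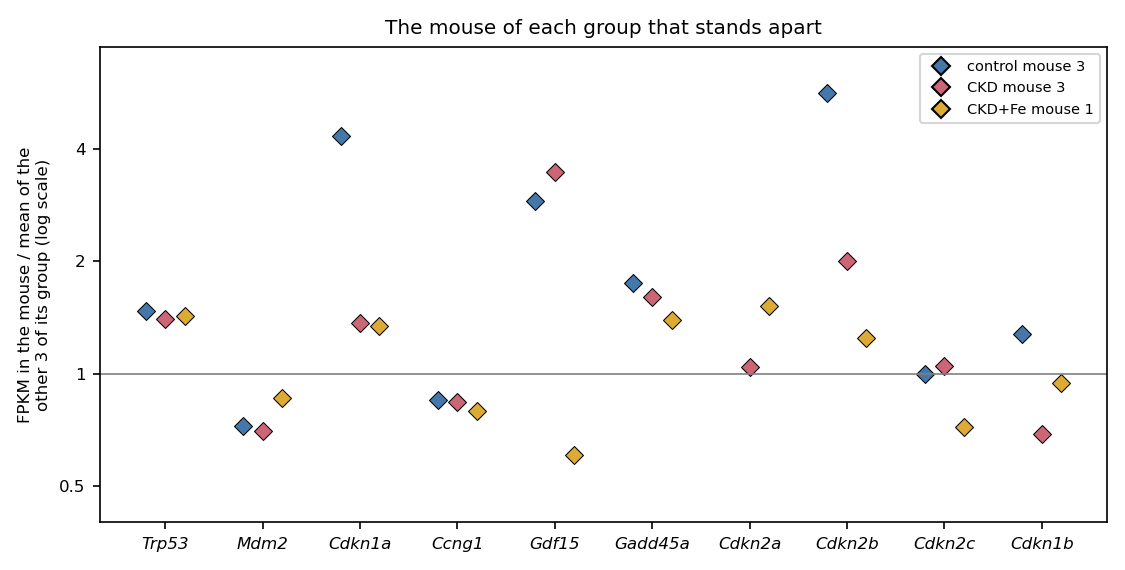
FPKM in the mouse that stands apart divided by the mean of the other 3 mice of its group (y axis, log scale) for each gene (x axis), with 1 diamond per group and none for Cdkn2a in control, where all values are 0. Trp53, Cdkn1a, Gadd45a and Cdkn2b lie above 1 and Mdm2 below 1 in all 3 groups.

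CKD+Fe was compared with CKD to ask what iron dextran changed in the diseased kidney. None of the 10 genes was called by limma in either direction, where 0.00761% of all genes (1 gene) were called higher and 0.0% lower, and 1 of the 10, Cdkn2a, had an unadjusted p under 0.05, as did 6.01% of all genes. For 9 of the 10 the log2 difference was negative, and the median of the 10 was -0.12 against -0.001 for all genes. In the same comparison the log2 difference was negative for all 7 injured tubule markers (median -0.6, 5 with an unadjusted p under 0.05). It was positive for 7 of 8 proximal tubule markers (median 0.48, 2 with an unadjusted p under 0.05). Of these, 1, Slc22a8, had every CKD+Fe mouse above every CKD mouse. In either list 0 markers were called, and the part of these in the values of the 10 genes was not tested. No member had all CKD+Fe mice above all CKD mice, as 1.35% of genes did, and 1 had all below, as 1.09% did.

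That gene was Cdkn2a, at 1.09, 0.633, 0.386 and 1.13 FPKM in CKD+Fe mice 1 to 4 against 1.43 to 1.58 in CKD mice. The mean was 0.808 ± 0.36 in CKD+Fe and 1.54 ± 0.0707 FPKM in CKD (SD, n = 4), a ratio of 0.526. The log2 difference was -0.51 (SE 0.15, 95% interval -0.82 to -0.2, unadjusted p = 0.00357, adjusted p = 0.456, limma; exact permutation p = 0.0286). It did not pass the adjusted threshold in any alternative, where the adjusted p ran from 0.0811 with array weights to 1.0, and the direction was the same in all of them. At this low level the size depends on the pseudocount, with -0.95 at a pseudocount of 0.1. All 4 CKD mice but only CKD+Fe mice 1 and 4 reached 1 FPKM. The gene thus passed the filter on low values only with the CKD mice, where it is higher. Its values here are a description and support nothing further on iron.

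Cdkn1a had 39.8, 33.6, 20.4 and 35.3 FPKM in CKD+Fe mice 1 to 4, within or below the range of the CKD mice. The log2 difference was -0.39 with a 95% interval from -1.22 to 0.44 (adjusted p = 0.971, limma), so neither a halving nor a moderate rise lies outside it. Cdkn2b had 5.38, 3.87, 3.8 and 5.27 FPKM, with a difference of -0.59 (95% interval -1.42 to 0.24, adjusted p = 0.937, limma). Both stayed above most or all controls. Gdf15 had 9.68, 34.6, 7.39 and 6.03 FPKM, where mouse 2 alone exceeded 10 FPKM, and its difference of -0.22 had the widest interval (-1.45 to 1.01).

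The other 6 had narrower intervals. Trp53 had 49.2, 37.9, 35.4 and 30.3 FPKM in CKD+Fe mice 1 to 4 (difference -0.1, 95% interval -0.52 to 0.31), and Mdm2 had 23.1, 25.7, 26.0 and 29.1 (0.11, -0.21 to 0.44). Ccng1 had 43.4, 54.4, 54.7 and 54.5 FPKM (-0.07, -0.41 to 0.27). Gadd45a had 55.1, 44.9, 34.5 and 39.2 FPKM (-0.11, -0.67 to 0.45). Cdkn1b had 30.4, 26.3, 32.3 and 37.9 FPKM (-0.01, -0.36 to 0.34), and Cdkn2c had 9.13, 15.8, 10.4 and 11.8 (-0.13, -0.48 to 0.22). In each of these 6 the CKD+Fe mice overlapped the CKD mice.

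Against control, which the comparison above shares with CKD, CKD+Fe mice had 9 of the 10 genes called higher and 0 lower, where 54.4% of all genes were higher and 11.0% lower. Every CKD+Fe mouse was above every control mouse for 5 genes, as for 50.4% of all genes, namely Cdkn1a, Cdkn1b, Cdkn2a, Trp53 and Mdm2. Every CKD+Fe mouse was below every control mouse for 1 gene, Ccng1, as for 9.85% of all genes. Leaving out each mouse in turn gave 6 to 9 called higher, with 6 when control mouse 2, control mouse 4 or CKD+Fe mouse 1 was left out, and the calls lost in these fits were of Cdkn2b (adjusted p up to 0.0916), Gdf15 (up to 0.129) and Gadd45a (up to 0.0821). Gdf15 reached an adjusted p of 0.164 (limma) without CKD+Fe mouse 2. The adjusted p of Cdkn2c also passed above the threshold with 1 mouse left out (up to 0.0542, limma). Cdkn1a was 6.04-fold higher (log2 fold change 2.62, SE 0.39, adjusted p = 7.65e-05, limma). Ccng1 fell short of the threshold as deposited (log2 fold change -0.33, adjusted p = 0.0842, limma) and passed it after rescaling (-0.88, adjusted p = 0.000686). After that rescaling 2 of the 10, Cdkn1a and Cdkn2a, were called higher and 1 lower, where 27.7% of all genes were higher and 27.5% lower. With quantile normalization 4 were higher, these 2 with Trp53 and Mdm2, and 0 lower, where 19.8% of all genes were higher and 22.6% lower.

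To set the 10 genes in their pathway, lists of related genes were described by their counts. Of 28 tested among 30 other p53 target genes, 20 were called higher and 1 lower in CKD against control, with a median log2 fold change of 0.77. Of all genes 54.6% were higher and 13.3% lower. The counts were 12 higher and 3 lower after rescaling (28.8% and 29.3% of all genes) and 9 and 5 with quantile normalization (23.3% and 25.6%), and 21 and 1 without the 3 mice that stand apart. Arrest and feedback targets were the group with the most calls, 10 of 11 with a median of 1.35. Sfn (14-3-3 sigma, which holds cells before mitosis) rose from 4.07 ± 1.76 to 33.8 ± 22.2 FPKM (log2 fold change 2.65, adjusted p = 3.83e-05), and Btg2, an antiproliferative cofactor, from 8.98 ± 2.07 to 44.8 ± 13.8 (2.18, adjusted p = 7.2e-05; SD, n = 4). Both stayed called after rescaling, at 2.15 and 1.64.

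Of 10 cell death targets tested, 6 were higher and 1 lower, close to the shares of all genes (54.6% and 13.3%). Pmaip1 (Noxa, a BH3-only protein) rose from 3.44 ± 0.986 to 23.6 ± 6.44 FPKM (SD, n = 4; log2 fold change 2.46, adjusted p = 8.44e-07, limma; 1.97 after rescaling). Perp, a desmosomal p53 target, fell from 51.3 ± 3.28 to 38.4 ± 5.65 FPKM (log2 fold change -0.42, adjusted p = 0.011; -0.99 after rescaling). In DNA repair and metabolism 4 of 7 tested were higher and 0 lower, again close to the 54.6% of all genes that were higher.

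Genes of the p53 family and its control were higher in 9 of 11 tested and lower in 0, where 54.6% of all genes were higher. After rescaling 4 were higher and 1 lower, and with quantile normalization 2 and 1, where 28.8% and 23.3% of all genes were higher. Mdm4, the partner of Mdm2 that also binds p53, rose from a range of 4.44 to 6.58 FPKM to one of 10.2 to 45.0 FPKM (log2 fold change 2.14, adjusted p = 0.000163, limma). Trp53bp1, a DNA break adaptor, rose by 1.31 (adjusted p = 8.56e-06) and Chek1, the checkpoint kinase, by 1.1 (adjusted p = 6.6e-05). All 3 were still called after rescaling, at 1.63, 0.82 and 0.86.

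Of the other CDK inhibitors, Cdkn3, a phosphatase that acts on Cdk2, rose by 1.24 on the log2 scale (adjusted p = 0.0117) and Cdkn2d (p19 of the INK4 family) by 0.85 (adjusted p = 0.000396), while Cdkn1c (p57) was at 0.47 (adjusted p = 0.302, limma). After rescaling Cdkn3 was at 0.96 (adjusted p = 0.0453) and Cdkn2d lost its call at 0.32 (adjusted p = 0.101, limma), and with quantile normalization 0 of the 3 were called. In the list of G1 cyclins, kinases and pocket proteins 10 of 17 tested were higher and 0 lower, or 5 and 2 after rescaling and 3 and 3 with quantile normalization. The shares of all genes that were higher were near these, at 54.6%, 28.8% and 23.3%. The kinases that the INK4 and CIP/KIP proteins bind were among them, with Cdk6 at 1.5 (adjusted p = 1.72e-05) and Cdk2 at 1.19 (adjusted p = 9.95e-06), and Ccne1, the cyclin of Cdk2, at 1.01 (adjusted p = 0.000139). After rescaling they were still called, at 1.04, 0.68 and 0.78. The proliferation list was higher throughout, 17 of 17, with 16 after rescaling and 10 with quantile normalization. Top2a, a topoisomerase of dividing cells, rose from 1.19 ± 0.478 to 8.88 ± 3.17 FPKM (SD, n = 4; log2 fold change 2.15, adjusted p = 0.000391, limma), Cdk1 by 1.98 and Ccna2 by 1.97, and these were called after rescaling at 1.76, 1.52 and 1.61. Most proliferation genes and the arrest gene Cdkn1a were thus higher in the same tissue as deposited and under both scalings. For the 10 genes and for the other CDK inhibitors as groups this does not hold. After rescaling 3 of the 10 genes and 1 of the 3 other CDK inhibitors were higher, close to the 28.8% of all genes. The arrest and feedback p53 targets differed from these lists. Among them Btg2, Plk2, Plk3, Sesn1, Phlda3, Sfn, Ddit4 and Trp53inp1 were still called higher after rescaling. Sesn2 was called lower, and Ppm1d and Zmat3 were not called. Whether transcripts of division and of arrest came from the same cells cannot be told apart in whole kidney. In the integrated stress response list, another known input to Gdf15, 2 of 6 tested were higher, or 1 higher and 1 lower after rescaling. Of all genes 54.6% were higher, or 28.8% higher and 29.3% lower after rescaling. Atf3 was higher at 2.79 (adjusted p = 1.4e-05, limma, and 2.39 after rescaling), whereas Ddit3 was at 0.3 (adjusted p = 0.357).

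With iron, no gene of these lists was called (limma, CKD+Fe against CKD). At an unadjusted p under 0.05, 1 of the 28 other p53 targets tested was higher and 1 lower. Of the 17 proliferation genes 0 were higher and 2 lower. The other lists had 0 in either direction, and 6.01% of all genes were past this level. The p53 target that was higher was Fdxr, a mitochondrial reductase (7.56 ± 1.42 to 10.8 ± 1.97 FPKM, log2 difference 0.46, adjusted p = 0.663). Zmat3, an RNA-binding p53 target, was lower (6.96 ± 0.963 to 5.34 ± 0.684 FPKM, -0.33, adjusted p = 0.824), as were Plk1 (-0.68, adjusted p = 0.782) and Mki67 (-0.6, adjusted p = 0.786) of the proliferation list. The medians were -0.02 over the other p53 targets and -0.35 over the proliferation list, where 15 of 17 values were negative, against -0.001 over all genes.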

How the data were processed

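Whole kidney RNA of 12 mice (4 control, 4 CKD, 4 CKD+Fe) was made into TruSeq stranded mRNA libraries and sequenced with single-end reads of 50 cycles on a HiSeq4000. The submitters' processing notes name bcl2fastq 2.19, STAR 2.5.2, Cufflinks 2.1.1 and GRCm38. The authors deposited FPKM per gene and mouse for 22053 rows, and 30 values marked as failed estimates (in 17 genes, none of the 10) were set to missing. The study itself tested read counts. FPKM are not counts, so no count test was made here.

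A linear model of log2(FPKM + 1) was fitted by limma 3.58.1 (R 4.3.3, variance trend, all 12 mice in 1 fit) to the 13148 genes that reached 1 FPKM in 4 or more mice. P values are two-sided, adjusted by Benjamini-Hochberg over all genes tested, at a threshold of 0.05. A fold change on this scale understates the change of low genes. Exact permutation tests enumerated the 70 arrangements of 4 mice against 4. Both tests were tested on simulated data. Nothing states more than that the mice are separate, so p values set the group differences against the spread between these mice.

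The depth in reads is unknown. From the smallest steps between low values, 1 read per kilobase was estimated at 0.0324 to 0.049 FPKM across mice, with a search range narrowed after the values were seen. FPKM are relative to each mouse's own mapped reads, whose number is unknown. The sum of FPKM over all rows ran from 607951 to 707843 in control mice. It ran from 503438 to 603556 in CKD and from 536139 to 572074 in CKD+Fe mice, below every control.

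The 10 genes, the related lists and the marker lists were chosen with earlier results of these data known. From each related list, up to 3 genes with the highest and 3 with the lowest log2 fold change are named among those called in CKD against control whose groups do not overlap, and for iron up to 2 each way at an unadjusted p under 0.05. Cdkn1c, Ddit3 and Gfral were named after their values were seen. Of the other markers tested in CKD against control, 1 of 6 for loop, duct and podocyte, 1 of 6 for endothelium, 0 of 7 for urothelium and 0 of 4 for red cells were called, both of them lower, and 4 of 5 for T and B cells were called higher. Alternatives were rescaling by the median of ratios, quantile normalization, a pseudocount of 0.1, no filter, a minimum mean of 5 FPKM, array weights, a fit of only the 2 groups compared, no variance trend and each mouse left out. Leaving out the 3 mice that stand apart was added after the data were seen.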

Additional observations from a re-analysis of the deposited data

Results flagged for a closer look

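In 6 of the 29 sets of 4 mice tested (3 groups of 10 genes, without Cdkn2a in control), the highest or lowest mouse lay farther from the others than Dixon's 95% critical value for the gap over the range. Chance flags about 1 set in 20. Cdkn1a in control mouse 3 was 12.6 FPKM, against 2.35 to 3.98 in the other controls (gap over range 0.841). Mdm2 in CKD mouse 3 was 18.3 FPKM, against 25.7 to 26.5 (0.892). Gadd45a in CKD mouse 3 was 66.2 FPKM, against 40.4 to 41.6 (0.954). Ccng1 in CKD+Fe mouse 1 was 43.4 FPKM, against 54.4 to 54.7 (0.975). These 4 values belong to the mice that stand apart from their groups over all genes. Ccng1 in CKD mouse 1 was 75.3 FPKM, against 46.4 to 50.7 (0.851), and Gdf15 in CKD+Fe mouse 2 was 34.6 FPKM, against 6.03 to 9.68 (0.872), and these belong to mice that do not stand apart.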

How the results depend on the processing

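No paired analysis was possible because the labels give the mice of different groups no shared replicate numbers. In CKD against control the 9 genes called higher became 3 after median-of-ratios rescaling and 5 with quantile normalization, and the 0 called lower became 1 after median-of-ratios rescaling and 0 to 1 with each mouse left out (1, Ccng1, without CKD mouse 1). In CKD+Fe against control the 9 higher became 2 and 4, and the 0 lower became 1 after median-of-ratios rescaling, with only the 2 groups compared and with array weights, and 0 to 1 with each mouse left out (again 1 without CKD mouse 1). Of 208 alternative values of single genes in CKD against control, 192 kept their direction and side of the threshold, 14 lost the call, 2 gained one and 0 reversed. Of 208 in CKD+Fe against control these numbers were 173, 29, 4 and 2. The 2 reversals were of Cdkn2c, at -0.01 (median-of-ratios) and -0.11 (quantile).

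In CKD+Fe against CKD no gene of the 10 was called in any alternative, and 12 of 208 values reversed. With each mouse left out, log2 differences ran from -0.14 to 0.076 for Cdkn1b, -0.23 to 0.016 for Trp53, -0.009 to 0.17 for Mdm2, -0.14 to 0.085 for Ccng1, -0.73 to 0.24 for Gdf15 and -0.23 to 0.057 for Gadd45a, and Gdf15 was 0.3 without the 3 mice that stand apart. Over all genes, CKD against control gave 7181 higher and 1748 lower as deposited, 3781 and 3856 after median-of-ratios rescaling and 3060 and 3363 with quantile normalization. CKD+Fe against control gave 7159 and 1442, 3636 and 3618, and 2605 and 2967, with 4749 higher at a mean of at least 5 FPKM. CKD+Fe against CKD gave 1 higher and 0 lower, 91 and 69 with array weights, and 51 and 33 without the 3 mice that stand apart. The cause of these changes was not tested. Without read counts, the precision of the low values of Cdkn2a and Cdkn2b is unknown.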
